A study of Homo sapiens with 6 samples.

Results

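The caspases are cysteine proteases that cut proteins after aspartate, and CFLAR (also called c-FLIP) is a caspase-like protein that lacks a working protease site. They are described here in HL60 cells, an established human promyelocytic leukemia line, through every HG-U133A probe set annotated to exactly 1 of the genes CASP1, CASP2, CASP4, CASP6, CASP8, CASP9, CASP10 and CFLAR. That rule found 33 of the 22283 probe sets on the array, from 2 each for CASP4, CASP6, CASP8 and CASP9 to 11 for CFLAR. Vehicle cells received dimethyl sulfoxide (DMSO, final concentration 0.1%) and treated cells received 1 μM tretinoin, all-trans retinoic acid, in the same vehicle, and both were kept for 5 days. Each condition has 3 arrays, which were parallel hybridizations of 1 pool made from 3 labeling reactions. The p-values below therefore reflect how hybridizations of pooled product scatter, not how cultures do, and precision is limited by having 6 arrays.

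Initiator caspases start the cascade. CASP8 and CASP10 are recruited to death receptors through adaptors such as FADD, CASP9 is activated on the APAF1 scaffold after cytochrome c leaves the mitochondria, and CASP2 is activated on a complex that includes CRADD. CASP6 is an executioner that cleaves nuclear lamins, among other proteins. CASP1 and CASP4 are inflammatory caspases that process cytokines of the interleukin-1 family or cleave gasdermin D, which opens pores in the cell membrane. CFLAR binds to FADD and CASP8 in the death receptor complex, and its splice forms differ in whether they keep the caspase-like part. Neutrophils and their precursors are short-lived cells in which these proteins are well known.

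Array values were linear MAS5 signals, brought here to the mean of DMSO replicate 1, and values below 20 were set to that floor. Between 54.9% and 60.1% of probe sets exceeded 20 on each array. The ACTB control probe sets, which read the 3' and 5' ends of 1 message to check RNA quality, gave a 3'/5' ratio of 1.38 to 1.42 in DMSO and 1.14 to 1.17 in tretinoin. The same ratio for GAPDH overlapped between conditions, at 1.06 to 1.17 in DMSO and 1.15 to 1.19 in tretinoin. The ACTB ratio thus moved with the condition and the GAPDH ratio did not separate them. The part of RNA quality in the results below was not tested. Of the promyelocyte markers fixed for the cell type, all 6 measured were lower in tretinoin, and their summed signal ran from 3786 to 4318 on DMSO arrays and from 216 to 246 on tretinoin arrays. The study had picked MPO and MS4A3 from these arrays, so the direction of these markers is not independent evidence. Among markers of T cells, B cells, erythroid cells and fibroblasts or epithelium, 2, 1, 1 and 3 genes could be tested, none was called by limma, and the highest single signal was 97.5. Fewer cells of a kind and less RNA per cell cannot be told apart in such bulk samples. A probe set was tested with limma where it exceeded 20 on at least 3 arrays, and was called at an adjusted p under 0.05 (Benjamini-Hochberg over 13374 probe sets) with a fitted difference of 1.5-fold or more.

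CFLAR, CASP8 and CASP6 were higher in tretinoin on every tested probe set, CASP2 was lower on 1 of its 3 tested probe sets, and no probe set of CASP1, CASP4, CASP9 or CASP10 passed. Of the 33 probe sets, 14 were called higher, 1 was called lower, 14 did not pass and 4 stayed too close to the floor to be tested. Across the array, 13.6% of tested probe sets were called higher and 13.8% lower. As deposited, without scaling, the median log2 fold change of all tested probe sets moved by -0.18, and the split over the array changed from 1824 higher and 1850 lower to 1142 higher and 2312 lower. The arrays of both conditions did not overlap on 22 of the 29 tested probe sets, with tretinoin the higher on 20, against 46.0% and 21.7% of all tested probe sets. The median log2 fold change over the 29 tested probe sets was 0.58, against -0.03 over all tested probe sets. Since 10 of the 29 belong to CFLAR and probe sets of 1 gene share transcripts, these counts are not counts of independent events. Both CASP6 probe sets are in the 14, the 22 and the 20 and in the median. They were tested only through their tretinoin arrays, so passing the filter fixed that their conditions did not overlap.

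Both CASP6 folds, given below, are lower bounds, so their true size cannot be ranked. With values below 20 set to 20, CFLAR showed the largest fold of the 8 genes. The study chose 1 of its probe sets, 208485_x_at, on these same arrays as 1 of 90 transcripts for a bead assay in which a pair of oligonucleotides is ligated on the complementary DNA, so the direction of that probe set is not independent evidence. Its gene-specific oligonucleotide pair shows which stretch of the transcript the study followed. Both are written 5′ to 3′, and the capitals mark the bases joined by the ligase.
CFLAR upstream: aatattatgtctggctgcaG
CFLAR downstream: Cacactctgagaaagaaact

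On 208485_x_at the scaled signals of the 3 DMSO arrays, in the order of their replicate numbers, were 69.6, 56.7 and 57.2, and those of the 3 tretinoin arrays were 206, 200.2 and 207. All tretinoin arrays lay far above all DMSO arrays, and the tretinoin arrays differed among themselves by less than the DMSO arrays did. The mean rose 3.34-fold, from 61.2 ± 7.31 to 204 ± 3.72 (SD, n = 3 arrays each; limma, adjusted p = 0.000148). On 211317_s_at, the probe set with the largest change of all 33, signals were 36.1, 44.4 and 29.7 in DMSO and 127, 117 and 154 in tretinoin. That was a rise of 3.62-fold, with a log2 fold change of 1.87 (95% interval 1.42 to 2.32) and an adjusted p of 0.000456 by limma.

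Across the array, tretinoin was higher without overlap on 21.7% of tested probe sets. That held for a further 7 CFLAR probe sets, which rose between 1.90-fold and 3.10-fold. The one with the highest signals, 211316_x_at, gave 110.8, 108 and 100.2 in DMSO and 245, 256 and 267 in tretinoin, a rise of 2.40-fold (limma, adjusted p = 0.000330). On 211862_x_at signals were 80.9, 84.9 and 62.3 in DMSO and 250, 232 and 225 in tretinoin, a rise of 3.09-fold. The least steady of these was 214486_x_at, with 47.0, 48.2 and 31.3 in DMSO and 97.6, 170 and 124 in tretinoin, where the tretinoin arrays spread widely but stayed above the DMSO arrays. The smallest rise of these 7 was on 210564_x_at, from 53.3, 55.2 and 55.4 to 105, 86.1 and 120.7, and it was not called without scaling (log2 fold change 0.71, adjusted p = 0.0706). The other 8 of these 9 probe sets were called higher under all 19 alternative settings.

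The 2 CFLAR probe sets without an _x or _s suffix had low signals. On 217654_at, DMSO arrays gave 22.1, 13.9 and 23.1 and tretinoin arrays 35.0, 32.2 and 31.3, so that DMSO replicate 2 was set to the floor and the rise was at least 1.51-fold (limma, adjusted p = 0.0108). That call was lost in 7 of 17 alternatives. Among them were no scaling (adjusted p = 0.319 by limma), leaving out DMSO replicate 2 (log2 fold change 0.54) and leaving out tretinoin replicate 1 (0.55). On 214618_at signals were 17.5, 12.3 and 21.4 in DMSO and 10.4, 19.9 and 16.1 in tretinoin, and it was not tested because only 1 array exceeded 20. The suffix _x_at marks probes that can also bind other transcripts, and _s_at marks probes shared by several transcripts. None of the 11 CFLAR probe sets was assigned to a single splice form here.

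**Figure D1:**
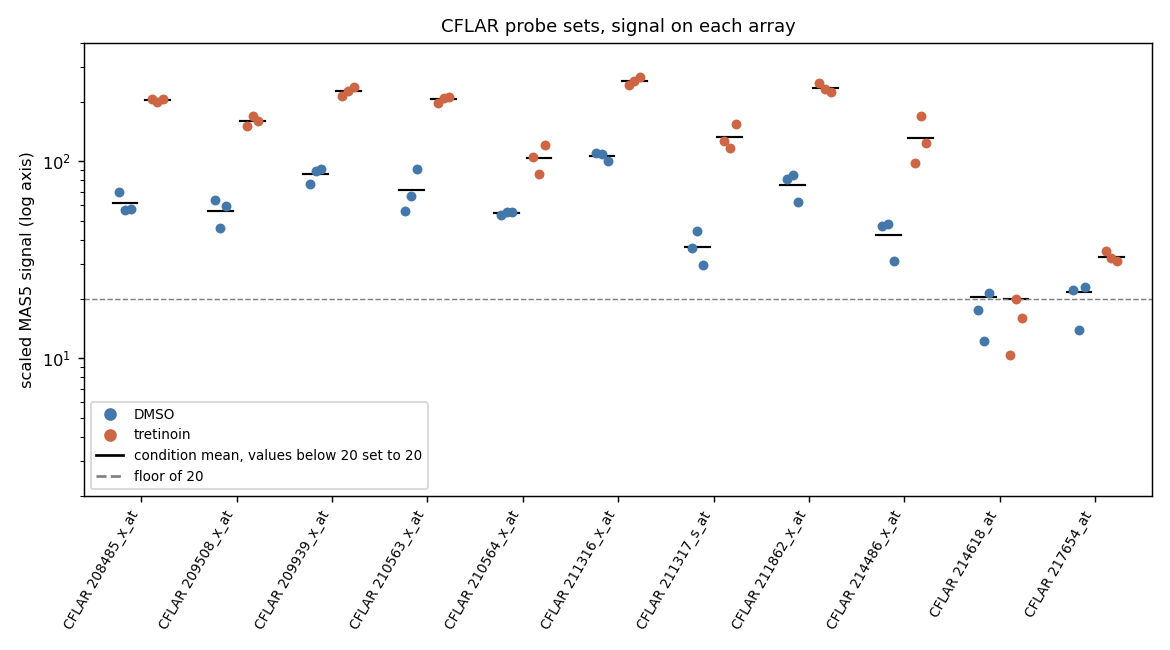
Scaled MAS5 signal (log axis) of the 11 CFLAR probe sets on the 3 DMSO and 3 tretinoin arrays, with 1 point per array, black bars for condition means after values below 20 were set to 20, and a dashed line at that floor. On 10 probe sets every tretinoin array lies above every DMSO array, as on 21.7% of all tested probe sets. The other, 214618_at, stays around the floor in both conditions.

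Whether probe sets of CFLAR responded unequally was tested on the ratio of both signals within each array, over all 5141 pairs of tested probe sets of the same gene on the array. Of 45 CFLAR pairs, 5 differed, at an adjusted p under 0.05 and a response that differed by at least 1.5-fold, against 4.55% of all pairs. The rise on 211317_s_at exceeded that on 210564_x_at by 1.94-fold (95% interval 1.38 to 2.72; limma, adjusted p = 0.0478). That call was lost in 14 of 19 alternatives, among them leaving out any 1 array. The other 4 pairs all contain 217654_at, whose rise was smaller than those of 211317_s_at (by 2.42-fold), 208485_x_at (by 2.22-fold), 211862_x_at (by 2.07-fold) and 209508_x_at (by 1.91-fold). One DMSO value of 217654_at was set to the floor, which makes its measured rise a lower bound and these differences upper bounds. With any 1 array left out, no more than 1 of the 65 pairs of all 8 genes was called. With the replicate number as a block, no pair was called by limma, and 15 had an unadjusted p under 0.05.

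**Figure D2:**
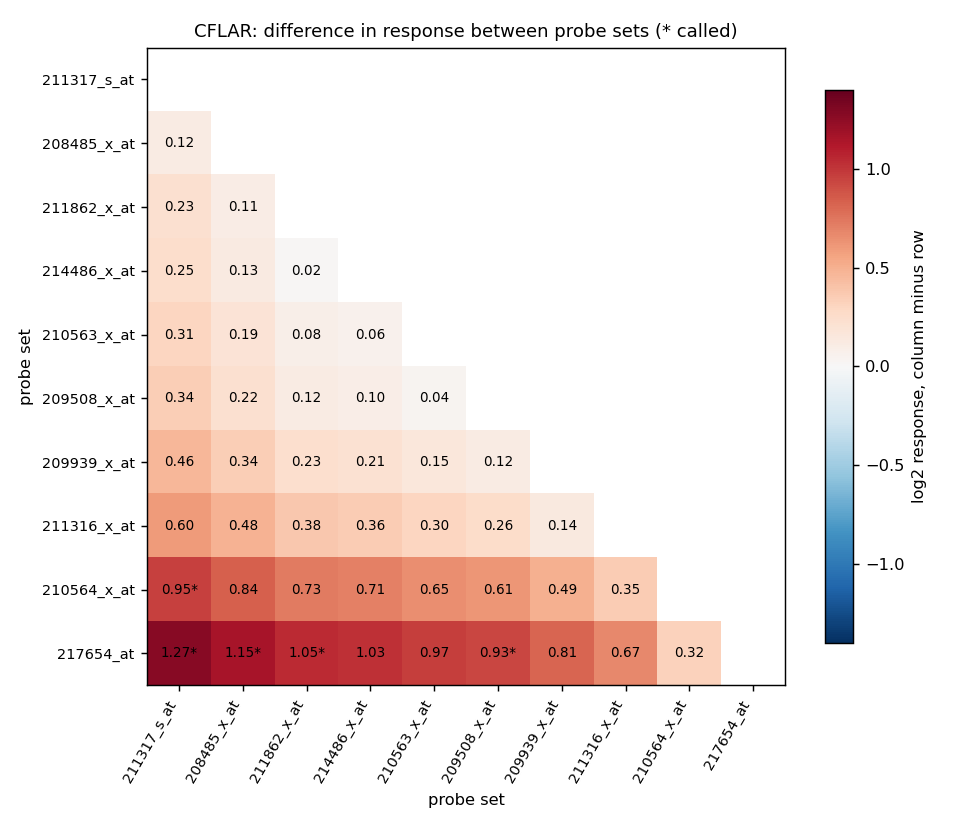
Difference in log2 response (tretinoin over DMSO) between each pair of the 10 tested CFLAR probe sets, as the probe set of the column minus that of the row, with probe sets ordered by their own change. An asterisk marks the 5 pairs called different, 4 of which lie in the bottom row, that of 217654_at.

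CASP8, the initiator that CFLAR controls, rose on both of its probe sets. On 213373_s_at signals were 61.1, 47.4 and 51.8 in DMSO and 99.0, 84.8 and 104 in tretinoin, with no overlap. The mean rose 1.80-fold, from 53.4 ± 6.998 to 96.1 ± 10.1 (SD, n = 3; limma, adjusted p = 0.00556). On 207686_s_at the DMSO arrays were nearly equal at 26.2, 26.7 and 26.7, and the tretinoin arrays gave 58.0, 42.8 and 48.4. That rise was 1.88-fold (limma, adjusted p = 0.00366), and the responses of both probe sets differed by only 1.03-fold (95% interval 0.750 to 1.43). Without scaling both calls were lost, at log2 fold changes of 0.65 and 0.69 and adjusted p of 0.0917 and 0.0691. With a floor of 40, above the DMSO level of 207686_s_at, that probe set had a log2 fold change of 0.30 and was not called (adjusted p = 0.0899).

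CASP10, which is closely related to CASP8, did not pass on any of its 3 tested probe sets, and the arrays of both conditions overlapped on each. Signals on 205467_at were 25.6, 23.7 and 42.7 in DMSO and 22.6, 49.2 and 36.5 in tretinoin. On 210708_x_at they were 43.7, 29.1 and 60.9 in DMSO and 36.1, 47.5 and 39.8 in tretinoin. On 211888_x_at they were 15.7, 35.5 and 36.3 in DMSO and 35.9, 33.8 and 43.6 in tretinoin. These probe sets were noisy, with 95% intervals of the fold change from 0.666 to 2.02, 0.612 to 1.498 and 0.838 to 1.93, and a rise of 1.80-fold, like that on CASP8 213373_s_at, lies inside the intervals of 205467_at and 211888_x_at. The fourth probe set, 210955_at, was at or below 19.8 on all 6 arrays. In the RefSeq annotation of GRCh38.p14, CFLAR, CASP10 and CASP8 follow each other on chromosome 2 with no other protein-coding gene between them, so the gene in the middle of this row had no called probe set while its neighbours on either side rose. The difference in response between these genes was not tested.

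CASP6 rose from below the floor. On 209790_s_at signals were 18.6, 10.97 and 19.4 in DMSO and 56.0, 48.0 and 55.1 in tretinoin, so all DMSO arrays were set to 20. The rise was at least 2.65-fold, to 53.0 ± 4.39 (SD, n = 3; limma, adjusted p = 0.000253). On 211464_x_at signals were 14.4, 2.77 and 6.97 in DMSO and 34.4, 43.0 and 43.5 in tretinoin, a rise of at least 2.01-fold (limma, adjusted p = 0.00178). Both probe sets were tested only because of their tretinoin arrays, and the floor left their DMSO arrays with an SD of 0. The adjusted p therefore leaves out the scatter of the DMSO arrays, and the call shows little beyond the separation already visible in the signals. With a floor of 40, near the treated level, 209790_s_at fell to a log2 change of 0.40 and lost its call, and 211464_x_at exceeded that floor on too few arrays to be tested.

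CASP9, the initiator of the mitochondrial route, did not pass. On 203984_s_at signals were 45.4, 43.8 and 71.5 in DMSO and 85.8, 88.4 and 53.6 in tretinoin, and on 210775_x_at they were 117, 120.2 and 109.6 in DMSO and 138, 181 and 92.8 in tretinoin. Tretinoin replicate 3 was the lowest tretinoin array on both probe sets, and the other tretinoin arrays lay above all DMSO arrays. Without it the log2 fold changes were 0.74 and 0.45 in place of 0.51 and 0.19, and neither passed. The 95% intervals of the fold change, 0.910 to 2.21 and 0.771 to 1.70, both include no change, and the rises of CASP8 lie inside the first and above the second.

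CASP2 was the only gene of the 8 with lower values in tretinoin on all its tested probe sets. On 209811_at signals were 53.6, 49.7 and 63.4 in DMSO and 27.9, 37.8 and 42.1 in tretinoin, with no overlap. The mean fell from 55.6 ± 7.05 to 35.9 ± 7.28 (SD, n = 3), 1.55-fold lower (limma, adjusted p = 0.0398). This call was lost in 11 of 19 alternatives. Among them were the fits without any 1 of DMSO replicates 1, 2 and 3 and tretinoin replicates 1 and 2. In those fits the adjusted p by limma lay between 0.0640 and 0.118. Signals on 208050_s_at were 102, 94.1 and 95.6 in DMSO and 72.8, 85.2 and 52.5 in tretinoin, also without overlap (1.39-fold lower, adjusted p = 0.0945), and this probe set was called without scaling and without tretinoin replicate 2. On 34449_at they were 50.5, 52.5 and 40.9 in DMSO and 48.2, 33.8 and 30.1 in tretinoin, where the conditions overlapped (adjusted p = 0.219). The remaining probe sets, 209812_x_at and 211140_s_at, were not tested, since only DMSO replicate 2 on 211140_s_at, at 26.5, exceeded 20.

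On the scaled signals, CASP1, which matures interleukin-1 beta, was higher on each tretinoin array than on any DMSO array on all 5 probe sets. Across the array, 21.7% of tested probe sets separated in that direction. On 211367_s_at the margin was narrow, with 47.2 on tretinoin replicate 1 against 46.97 on DMSO replicate 2. No CASP1 probe set reached the 1.5-fold needed for a call. On 209970_x_at signals were 171, 177 and 183 in DMSO and 246, 234 and 230.0 in tretinoin, and on 206011_at they were 42.9, 41.8 and 44.8 in DMSO and 69.3, 61.4 and 63.1 in tretinoin. The DMSO arrays were close together on both. Differences were 1.34-fold (adjusted p = 0.0296 by limma) and 1.496-fold on the ratio of means with a log2 fold change of 0.58 (adjusted p = 0.00981), just short of the minimum. On 211368_s_at they were 54.4, 56.8 and 68.4 in DMSO and 82.6, 85.5 and 95.7 in tretinoin (1.47-fold, adjusted p = 0.0233).

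The other CASP1 probe sets, 211366_x_at and 211367_s_at, were 1.21-fold and 1.42-fold higher at an adjusted p of 0.156 and 0.119. With an adjusted p under 0.05 alone, 3 of the 5 would be called, against 15.8% of all tested probe sets that would be called higher. Small shifts decided the fold minimum for 206011_at and 211368_s_at. The first passed with equal medians, without DMSO replicate 3, without tretinoin replicate 2 and without tretinoin replicate 3. The second passed without DMSO replicate 3 and without tretinoin replicate 1. Without scaling, no CASP1 probe set had an adjusted p under 0.05 by limma. In that setting the log2 fold changes of 206011_at, 211368_s_at, 209970_x_at and 211366_x_at were 0.38, 0.36, 0.22 and 0.08. No pair of CASP1 probe sets differed in response (lowest adjusted p = 0.462 by limma over the 10 pairs, none with an unadjusted p under 0.05).

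CASP4, which senses bacterial lipopolysaccharide inside the cell, was 1.23-fold higher on 209310_s_at, with 51.3, 53.8 and 57.7 in DMSO and 61.1, 70.6 and 67.9 in tretinoin, and did not pass (limma, adjusted p = 0.127). On 213596_at signals were 25.5, 24.2 and 31.9 in DMSO and 32.2, 41.5 and 27.4 in tretinoin, and the conditions overlapped (1.24-fold, adjusted p = 0.302). The responses of both probe sets were almost equal, with a 95% interval of their ratio from 0.708 to 1.403. CASP5, the protein-coding gene between CASP4 and CASP1 on chromosome 11, exceeded 20 on only 1 of 6 arrays, at 20.1, and was not tested.

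**Figure D3:**
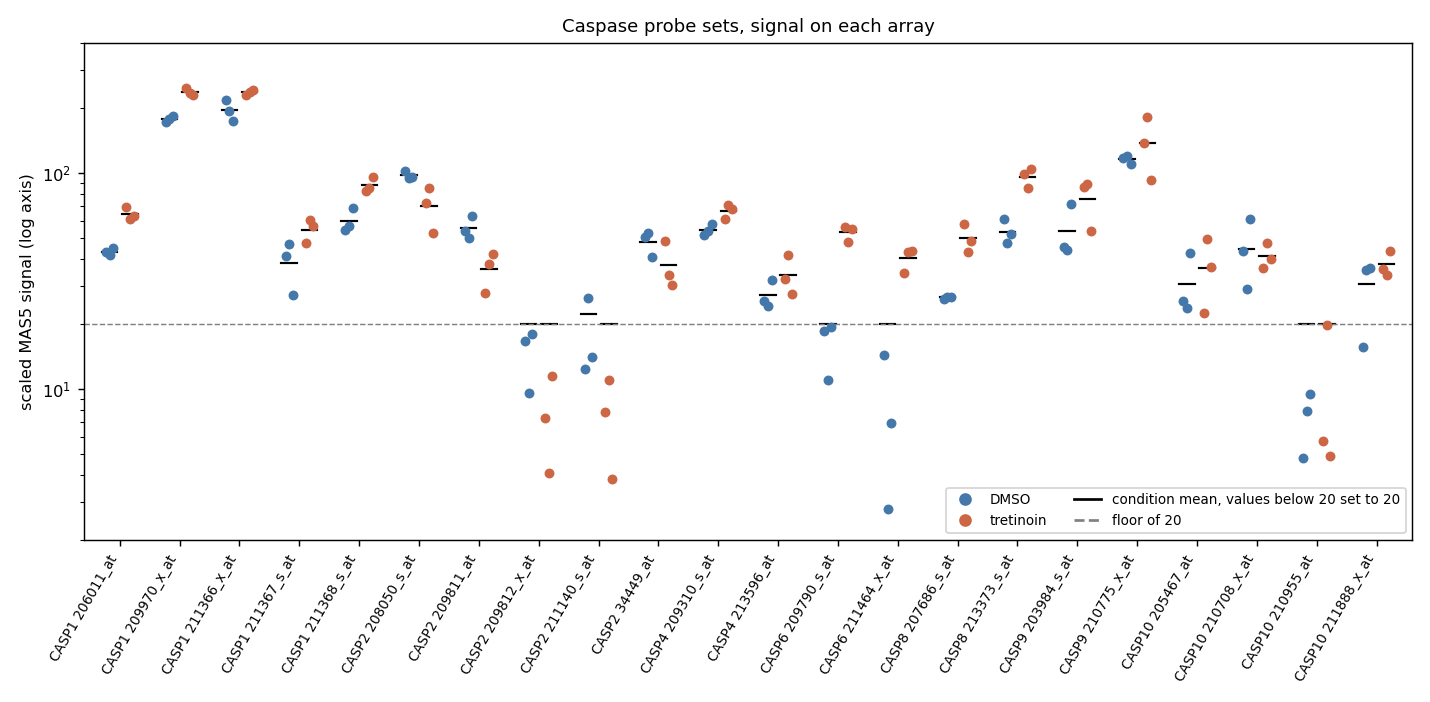
Scaled MAS5 signal (log axis) of the 22 caspase probe sets on the 3 DMSO and 3 tretinoin arrays, with 1 point per array, black bars for condition means after values below 20 were set to 20, and a dashed line at that floor. CASP6 crosses the floor from DMSO to tretinoin, both CASP8 probe sets separate, and CASP9 and CASP10 overlap.

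**Figure D4:**
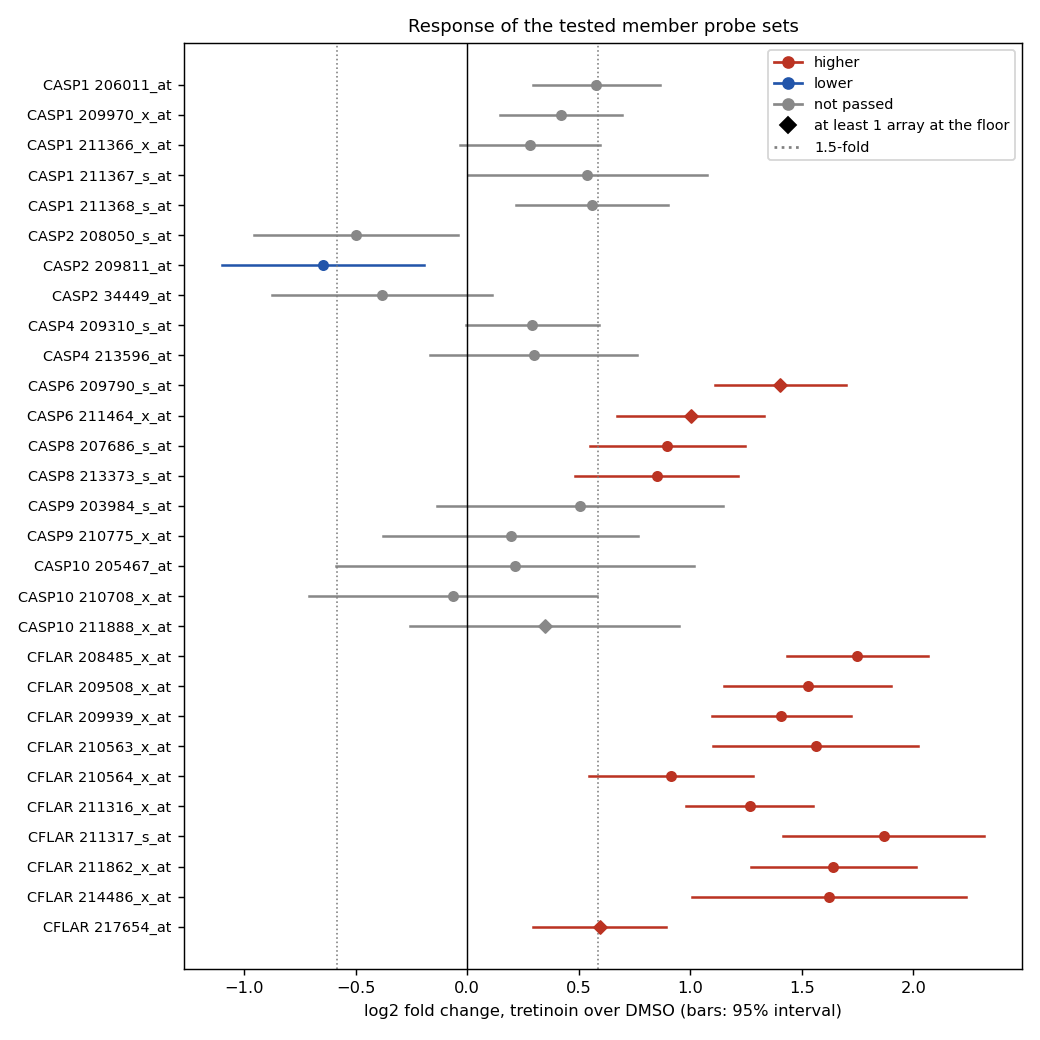
Log2 fold change (tretinoin over DMSO) with its 95% interval from limma for the 29 tested probe sets, in red where called higher, blue where called lower and gray where not passed. Diamonds mark probe sets with at least 1 array at the floor, and dotted lines mark 1.5-fold. The points furthest to the right are of CFLAR, but those of CASP6 and CASP8 lie to the right of its lowest point, that of 217654_at. The 4 points to the left of 0 are the 3 of CASP2 and 1 of CASP10.

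RefSeq promoter sequence is shown for the genes that rose on every tested probe set. The table of GRCh38.p14 promoters held 13 start sites for 6 of the 8 genes. For the most upstream listed start of CFLAR (1 of 4), CASP8 (1 of 3) and CASP6 (its only one), the 250 bases before the start follow, 5′ to 3′ on the strand of the gene. Capitals mark GGGCGG, the core bound by SP1, and TTCNNNGAA, a core bound by STAT factors.
CFLAR, chr2:201118466-201118715, plus strand: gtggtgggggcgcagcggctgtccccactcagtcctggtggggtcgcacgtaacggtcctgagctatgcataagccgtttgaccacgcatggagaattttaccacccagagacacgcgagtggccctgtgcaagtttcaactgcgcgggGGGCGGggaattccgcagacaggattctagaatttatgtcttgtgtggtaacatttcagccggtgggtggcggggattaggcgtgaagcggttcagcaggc
CASP8, chr2:201233213-201233462, plus strand: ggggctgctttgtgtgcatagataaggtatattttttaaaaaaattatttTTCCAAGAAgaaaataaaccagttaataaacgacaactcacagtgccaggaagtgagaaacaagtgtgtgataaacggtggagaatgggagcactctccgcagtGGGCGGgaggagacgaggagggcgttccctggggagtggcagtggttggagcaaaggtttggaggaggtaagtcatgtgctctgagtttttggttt
CASP6, chr4:109703446-109703695, minus strand: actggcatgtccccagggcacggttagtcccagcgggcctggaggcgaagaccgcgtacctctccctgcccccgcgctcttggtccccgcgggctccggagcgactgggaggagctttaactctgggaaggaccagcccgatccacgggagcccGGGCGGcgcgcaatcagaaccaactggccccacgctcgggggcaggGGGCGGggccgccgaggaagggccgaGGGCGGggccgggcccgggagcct

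Motifs were searched on both strands in the 250 bases before each start, and a match is a description and not a site of binding. GGGCGG stood in 8 of the 13 windows and in all 6 genes, with 1 match in the CFLAR and CASP8 windows shown and 3 in that of CASP6, against 42.6% of 35116 windows. TTCNNNGAA stood in 1 window, that of CASP8, against 6.57% of all windows. The half-site of retinoic acid receptors, AGGTCA, stood in 1 of the 13 windows, that of the most upstream CASP9 start, against 12.1% of all windows. A direct repeat of AGGTCA with 5 bases of any kind between its copies, the interferon regulatory factor motif of GAAA repeated after 2 bases, and the NF-kappaB motif of GGG and TTTCC with 2 bases between were in none of the 13, against 0.00285%, 3.02% and 1.73% of all windows. GC content of the windows shown was 58.8% for CFLAR, 45.6% for CASP8 and 74.0% for CASP6.

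Partners and substrates of the caspases came from lists of 48 genes, of which 39 had a probe set annotated to them alone in the data used here. The brightest one stands for each gene, and 32 could be tested. The shares given beside the lists are over all tested probe sets, not over the brightest of each gene. The lists were chosen with earlier results of these data known, so they are not independent of these data. Inflammasome genes held most of the rises. Of 8 tested, 5 were higher and none was lower, against 13.6% and 13.8% of all tested probe sets. The list median was 0.76 on the log2 scale against -0.03 over all tested probe sets. AIM2, MEFV and CARD8 did not pass, and NLRP1, NLRP3 and SERPINB9 exceeded 20 on too few arrays to be tested. PYCARD, the adaptor that links sensors to CASP1, rose 2.90-fold, from 186, 150.0 and 121 in DMSO to 459, 433 and 433 in tretinoin (limma, adjusted p = 0.000730). IL1B, the precursor that CASP1 cleaves, rose 2.77-fold from 70.4, 59.6 and 48.2 to 150, 168 and 177 (adjusted p = 0.000787). IL18, another CASP1 substrate, rose at least 1.98-fold and GSDMD, the pore-forming substrate of CASP1 and CASP4, at least 1.78-fold, and each was set to the floor on 1 DMSO array. RIPK2, a kinase that interacts with CASP1, rose 1.63-fold from 88.1, 87.5 and 71.8 to 124, 134 and 145 (adjusted p = 0.00859). Calls for GSDMD and RIPK2 were lost without scaling.

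Of 8 tested death receptor genes, 1 was higher and 2 were lower, against 13.6% and 13.8% of all tested probe sets. Their median log2 fold change was -0.05. TNFRSF1A, a receptor for tumor necrosis factor, rose 2.89-fold from 102, 135 and 103 in DMSO to 327, 355 and 300.5 in tretinoin (limma, adjusted p = 0.000490). PEA15, a small protein that binds FADD and CASP8, fell 1.96-fold, from a mean of 106 to 54.0, and TNFRSF10B, a receptor for TRAIL, fell 1.68-fold, from 112 to 66.5. The TNFRSF10B call was lost without DMSO replicate 1, DMSO replicate 3 or tretinoin replicate 1, with an adjusted p between 0.0583 and 0.0759. FADD itself overlapped between conditions, with 45.1, 90.7 and 70.3 in DMSO and 67.3, 74.3 and 47.7 in tretinoin (adjusted p = 0.855).

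On the mitochondrial side, 1 gene was higher and 1 was lower of 8 tested apoptosome and inhibitor genes, with a median of -0.06. Over all tested probe sets, 13.6% were higher and 13.8% lower. CYCS, cytochrome c, fell 2.05-fold from 1704, 1547 and 1610 in DMSO to 799, 846 and 727 in tretinoin (limma, adjusted p = 0.000941). BIRC2, an inhibitor of apoptosis protein, rose 2.46-fold from 65.2, 66.1 and 37.3 to 149, 136 and 130.2 (adjusted p = 0.00503). APAF1, the scaffold for CASP9, overlapped between conditions at 62.4, 54.4 and 76.0 in DMSO and 74.4, 84.3 and 74.7 in tretinoin (adjusted p = 0.228).

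Of 8 tested caspase substrates, 1 was higher and 2 were lower, against the same 13.6% and 13.8%, with a median of -0.32. LMNB1, a lamin of the nuclear envelope, fell 3.72-fold from 160, 158 and 120 in DMSO to 41.1, 49.0 and 27.8 in tretinoin (limma, adjusted p = 0.00105), and PARP1, an enzyme of the DNA damage response, fell 2.02-fold. ROCK1, a kinase of the actin cytoskeleton, rose 1.52-fold (adjusted p = 0.00642), and its call was lost in 6 of 19 alternatives, among them no scaling, quantile normalization and leaving out tretinoin replicate 1 (log2 fold change 0.58). TRADD, BIRC5 and NAIP were not called on the probe set that stands for them, but another of their probe sets was, higher for TRADD and NAIP and lower for BIRC5. Conversely, RIPK2, ROCK1 and PEA15 were each called on only 1 of 2 probe sets, and TNFRSF10B on 2 of 3.

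**Figure D5:**
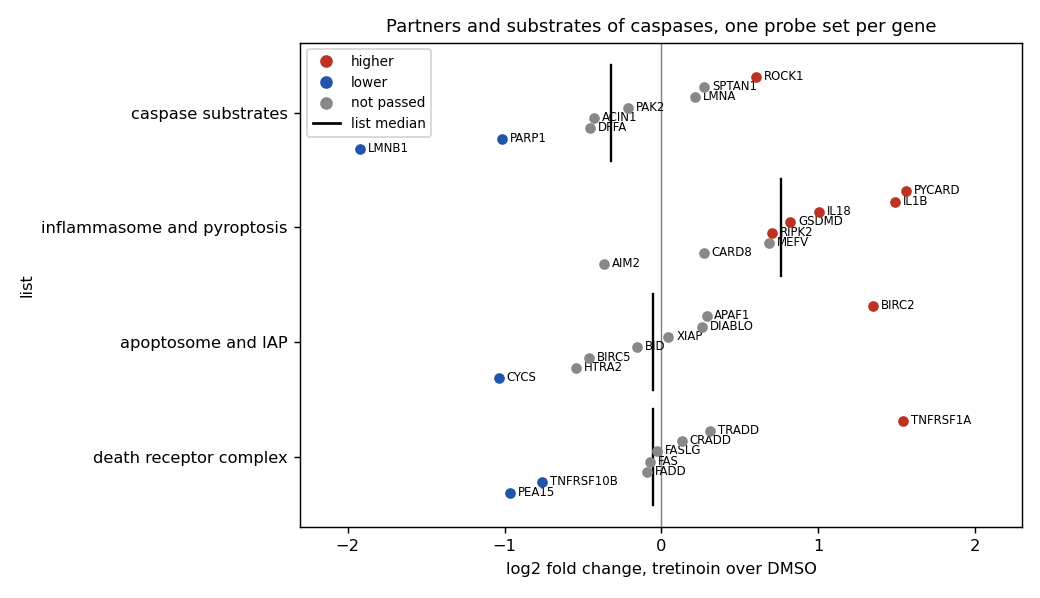
Log2 fold change (tretinoin over DMSO) of the 32 tested partner and substrate genes, 1 probe set per gene, grouped by list, with red for called higher, blue for called lower, gray for not passed and black bars for list medians. Of the 4 lists, the inflammasome list has its median furthest to the right, at 0.76.

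Across the 6 arrays, the genes with log2 changes from the DMSO mean nearest to those of CFLAR on 211316_x_at were APLP2, FCER2, LAPTM5, CAPN3 and CYLD, at a root mean square difference of 0.0468 to 0.0608. For 211317_s_at they were RCBTB2, CD58, THEMIS2, SERPINB1 and GM2A, at 0.106 to 0.155. The 6 arrays come from only 2 conditions, so any gene with a fold change of the same size and steady arrays scores well on this measure, and CAPN3 is itself among the 90 transcripts the study chose.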

How the data were processed

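The deposited values are MAS5 signal intensities of 6 HG-U133A arrays, per the labels, on a linear scale and before the scaling between arrays that the authors describe. Here every array was rescaled so that its mean matched DMSO replicate 1 (factors 0.820 to 1.36), a floor of 20 was applied, and limma 3.58.1 in R 4.3.3 fitted 1 mean per condition to the log2 values. Folds are ratios of condition means after that floor, and where any array of a condition was at the floor the fold is a lower bound. Pairs of probe sets were fitted in the same way on their per-array log2 ratios. Genes come from GEO's platform annotation, in which 19071 probe sets have 1 symbol, 1043 have several and 2169 have none. No probe set with several symbols held a member. The probe sets named are all members, and up to 4 called genes of each list with the largest fold. Also named are the 5 genes nearest to each of 2 CFLAR probe sets. List genes chosen after their values were seen are RIPK2, FADD, APAF1, CASP5 and those with another called probe set. The inflammasome genes that were not called were likewise named after their values were seen. Members and lists were chosen with earlier results of these data known. Calls were also tested on simulated data. Alternatives were other scalings, floors, filters, variance models and fold minimums, a replicate block and each array left out. Python 3.11.15 drew the figures with matplotlib 3.10.9. Oligonucleotides are from the study's supplementary table, promoters from RefSeq. The bead assay's values are not used here.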

Additional observations from a re-analysis of the deposited data

How the results depend on the processing

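No result turned its direction while called. Of 29 tested member probe sets under 19 alternatives, 505 of 542 comparisons kept the side of the threshold, 6 probe sets lost a call somewhere, 4 gained one, and 5 comparisons of uncalled probe sets changed sign. Members called higher, 14 in the main setting, numbered 10 without scaling, with a floor of 40 and with a minimum of 2-fold, 11 to 15 under the other settings, 17 with no fold minimum, and 13 to 16 with 1 array left out. The count called lower was 2 without scaling and 0 with a floor of 10, a floor of 40, an offset of 16, no filter, trend and robust variances or a minimum of 2-fold, and 0 to 1 with 1 array left out. Where limma called 0, 1 to 2 had an unadjusted p under 0.05. Pairs called different numbered 3 with quantile normalization, 1 with a floor of 10, 2 with a floor of 40, 3 with an offset of 16, 12 with no filter, 1 with signals above 20 on all 6 arrays, 3 with a minimum of 2-fold, and 0 to 1 with 1 array left out (12 to 15 with an unadjusted p under 0.05 where limma called 0). Partner genes called higher were 5 without scaling and 5 with a minimum of 2-fold, and those called lower were 3 with a minimum of 2-fold. With 1 array left out they were 7 to 8 and 4 to 5. The cause was not tested.

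Arrays share replicate numbers across conditions, but deviations of same-numbered arrays correlated at -0.027, -0.014 and 0.066, so the numbers were not taken as pairs. With the replicate block, 0 pairs of probe sets were called (15 with an unadjusted p under 0.05), against 5 without it, and 1743 probe sets were higher and 1758 lower over the array. Signals near the floor of 20 limit CASP6, CASP10 and part of CASP8, CFLAR, CASP2 and CASP4.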
